A study of Mus musculus with 6 samples.

Results

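The 10 genes of the Nrf2 oxidative stress response, Hmox1, Nqo1, Gclm, Gclc, Srxn1, Txnrd1, Slc7a11, G6pdx, Nfe2l2 and Keap1, were followed in mouse skin as incisional wounds healed with or without topical vemurafenib. The genes were picked by symbol from a list of known Nrf2 pathway genes, and that list was drawn up with earlier results of these data known. All 10 were found among the 23913 genes of the expression table, and all 10 were among the 13392 genes that passed a filter of a mean of at least 1 FPKM (fragments counted per kilobase of a gene's transcript, relative to the library's mapped fragments) over the 6 libraries. Vemurafenib is an inhibitor of mutant BRAF, and in cells with normal BRAF it can raise MAPK signalling instead of lowering it, which is the setting of the study. Female C3Hf/Kam mice (given as the C3H strain in the sample labels) received a full-thickness cut in the shaved back skin, and the wound was dosed every other day with vemurafenib suspended in DMSO and PBS, or with DMSO in PBS alone as vehicle. No transgene or deletion was described in either arm, and the animals were 8 to 10 weeks old. The groups were vemurafenib on days 2, 6 and 14 and vehicle on days 2, 6 and 14, each with 1 deposited sample, called a library here. The labels call the vehicle samples untreated, while the study's methods describe a vehicle, and how many mice went into a library was not stated in either.

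Nrf2, the protein of Nfe2l2, is a transcription factor that is made all the time and destroyed almost as fast, because Keap1 hands it to a Cul3 ubiquitin ligase. Oxidants and electrophiles modify cysteines of Keap1, Nrf2 then builds up, pairs with a small Maf protein and binds antioxidant response elements (AREs) in its target genes, a place for which the repressor Bach1 competes. The targets make glutathione, reduce thioredoxin and quinones, supply NADPH and break down haem. In skin wounds oxidants come largely from the oxidase of neutrophils and macrophages, and Nrf2 targets are found both in keratinocytes and in the immune cells of the wound.

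The ARE core is short and can be looked for in the DNA upstream of the genes, so the stretches with a match are shown here, before the values. RefSeq promoters (GRCm38.p6) were at hand for 8 of the 10 genes, with 3 alternative starts for Txnrd1; Hmox1 and Gclc had no entry. The 250 bases upstream of each start were searched on both strands for the ARE core TGACNNNGC, for the same core with G in place of C, TGAGNNNGC (added after the other 2 searches), and for the site of AP-1, the Fos and Jun factor of the MAPK pathway, TGANTCA. The AP-1 site and the core with G can overlap. Of 32851 mouse promoters of this length, 10.2% held TGACNNNGC, 14.4% held TGAGNNNGC and 6.75% held TGANTCA. TGACNNNGC was found in 4 of the 8 genes, and each match is given in capitals, 5′ to 3′ on the strand that carries it, with the bases around it.

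G6pdx, chrX:74428914-74428952, plus strand: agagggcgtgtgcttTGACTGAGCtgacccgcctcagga
Gclm, chr3:122245408-122245446, minus strand: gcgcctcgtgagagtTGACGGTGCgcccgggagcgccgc
Nfe2l2, chr2:75704880-75704913, minus strand: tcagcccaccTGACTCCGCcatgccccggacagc
Txnrd1, chr10:82859099-82859137, minus strand: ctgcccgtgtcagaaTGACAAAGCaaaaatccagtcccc

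The match began 57 bases before the start of G6pdx, 134 before that of Gclm, 240 before that of Nfe2l2 itself and 92 before 1 of the 3 starts of Txnrd1. TGAGNNNGC was found in 2 of the 8 genes, once in Slc7a11 and at 2 places in Srxn1. Srxn1 was also the only one of the 8 with an AP-1 site, at 2 places, and its 250 bases are printed whole because 1 AP-1 site lies inside an ARE-type match. The capitals mark all 3 matched stretches, of which the first is TGAGTCGGC read on the minus strand and the last, TGAGTCAGC, is both.

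Slc7a11, chr3:50443687-50443725, plus strand: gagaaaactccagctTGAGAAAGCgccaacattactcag
Srxn1, chr2:152105274-152105523, plus strand: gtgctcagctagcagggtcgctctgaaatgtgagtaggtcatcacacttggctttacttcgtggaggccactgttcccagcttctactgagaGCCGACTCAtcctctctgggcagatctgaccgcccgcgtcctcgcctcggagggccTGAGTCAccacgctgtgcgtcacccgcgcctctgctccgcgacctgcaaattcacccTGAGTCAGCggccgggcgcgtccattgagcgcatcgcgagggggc

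No match was found in the 250 bases upstream of Nqo1 and Keap1. These are matches of letters in 1 short window, and AREs further upstream were not searched.

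The libraries held between 12746 and 13062 genes at 1 FPKM or more. FPKM carry no read counts, and low values did not fall into steps of 1 read, so that the depth was unknown. In the columns of vemurafenib day 2 and vehicle day 14 at most 0.0056% of values had more than 6 significant digits, against 50.3% to 58.1% in the other 4. The other 4 thus had the form of averages of 2 values, and those of vemurafenib day 2 and vehicle day 14 that of single values. Whether these 4 each stand for 2 measurements was not stated. Ratios between arms on days 2 and 14 thus set a column with the form of single values against one with the form of averages. On day 6 both columns had that form. The samples were labelled skin, and defining markers of skin cells were present in all 6 libraries: Krt14, a keratin of basal keratinocytes, was between 1692 and 7896 FPKM in vemurafenib wounds and between 1332 and 8285 FPKM in vehicle wounds. None of the listed markers of 11 cell types found in the table was at 0 in all libraries. Several marker sums differed between arms on day 6. The 14 macrophage markers summed to 3210 FPKM with vemurafenib and 1547 FPKM with vehicle, and the 8 measured markers of differentiated keratinocytes to 7270 FPKM with vemurafenib and 20265 FPKM with vehicle. Skeletal muscle markers also summed higher in vemurafenib wounds on that day, 10140 against 4514 FPKM in vehicle wounds. With 1 library per arm and day there is no replicate of any single group, and ratios between arms on 1 day are given as values with no test.

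**Figure D1:**
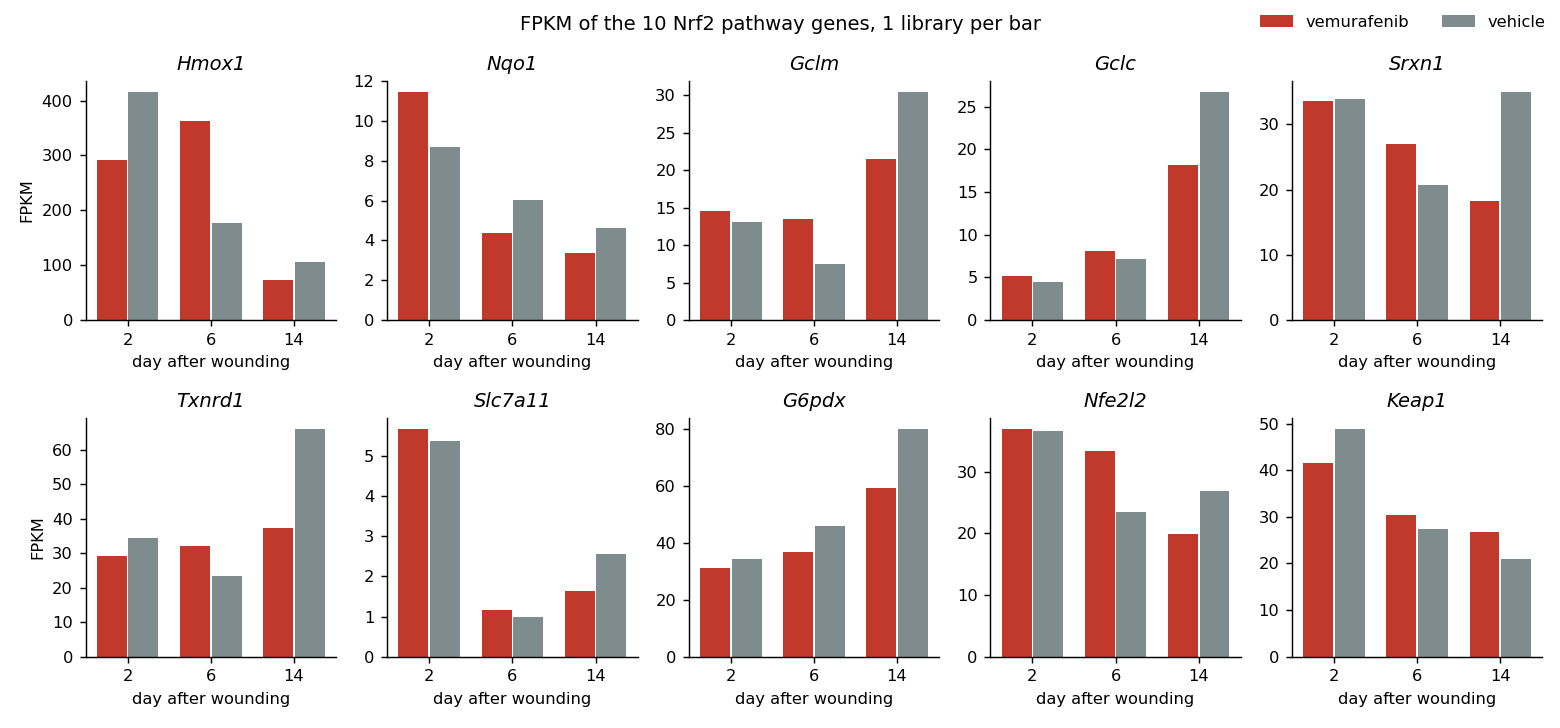
FPKM of each of the 10 genes (y axis, own scale per panel, from 0) in the 6 libraries by day after wounding (x axis), with vemurafenib left of vehicle; each bar is 1 library, so there are no error bars. Hmox1 was the most abundant of the 10, between 72.6 and 363 FPKM with vemurafenib and between 106 and 415 FPKM with vehicle, and Slc7a11 the least.

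Hmox1, haem oxygenase 1 (mm9 chr8:77617490-77624495, plus strand), cleaves haem to biliverdin, iron and carbon monoxide. It was by far the most abundant of the 10 genes on the per-length FPKM scale, with a mean above that of 96.3% of the genes tested. In vemurafenib wounds it had 291, 363 and 72.6 FPKM on days 2, 6 and 14, against 415, 176 and 106 FPKM in vehicle wounds. The vehicle wounds were thus highest on day 2, and the vemurafenib wounds on day 6. With 0.1 FPKM added to both values, its log2 ratio between vemurafenib and vehicle was -0.51 on day 2, 1.04 on day 6 and -0.54 on day 14. On day 6 the FPKM were 2.06-fold higher with vemurafenib, a ratio above that of 95.2% of genes. Since whole skin was sequenced, fewer cells of a type and less RNA per cell cannot be told apart here or below.

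Macrophages, which take up and degrade red blood cells, are a main site of Hmox1 expression, and their markers moved the same way as Hmox1 on days 2 and 6. On day 6 all 14 macrophage markers were higher with vemurafenib (median log2 ratio 1.45), whereas 1 of 14 was higher on day 2 (median -0.66) and 7 of 14 on day 14 (median 0.14). Of these markers, Marco passed the filter only through the vemurafenib library of day 6, with 5.97 FPKM there and at most 0.577 FPKM elsewhere. Its direction on day 6 was thus set by the filter. Set against the summed FPKM of these markers, Hmox1 came to 16.3%, 11.3% and 6.62% on days 2, 6 and 14 in vemurafenib wounds, and to 17.4%, 11.4% and 14.9% in vehicle wounds. The largest marker of the sum was Cd14, a receptor for bacterial lipopolysaccharide, on day 2 and Lyz2, the lysozyme of macrophages and neutrophils, on days 6 and 14. Without Lyz2 the shares were 18.4%, 20.1% and 11.5% with vemurafenib and 19.2%, 16.7% and 23.4% with vehicle. Without both, a choice made after seeing the data, they were 43.0%, 22.4% and 11.8% with vemurafenib and 28.2%, 17.5% and 24.0% with vehicle. The share on day 14 was lower with vemurafenib in each of these 3 sums, while on days 2 and 6 how the arms compared depended on the markers summed. Red blood cell markers, which mark blood left in the tissue, summed to 1393, 581 and 273 FPKM with vemurafenib and to 2629, 477 and 125 FPKM with vehicle, so that they were lower in the vemurafenib library on day 2 and higher on days 6 and 14. The part of either cell type in the Hmox1 values was not tested.

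Slc7a11 (mm9 chr3:50168858-50247535, minus strand) encodes xCT, the exchanger that brings in cystine for glutathione synthesis. It had 5.66, 1.16 and 1.65 FPKM with vemurafenib on days 2, 6 and 14, against 5.36, 0.995 and 2.56 FPKM with vehicle. Both arms were highest on day 2 and lowest on day 6. The ratio between arms was small early and lower later, with log2 values of 0.08 on day 2, 0.21 on day 6 and -0.61 on day 14.

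Gclc (mm9 chr9:77602342-77642292, plus strand) and Gclm (mm9 chr3:121948475-121972902, plus strand) encode the catalytic and the modifier subunit of glutamate-cysteine ligase, which makes the first and limiting step of glutathione synthesis. Gclc had 5.20, 8.11 and 18.2 FPKM with vemurafenib on days 2, 6 and 14, against 4.40, 7.13 and 26.7 FPKM with vehicle. Gclm had 14.6, 13.4 and 21.4 FPKM with vemurafenib, against 13.0, 7.54 and 30.3 FPKM with vehicle. Both subunits were highest on day 14 in either arm, and at that time both were lower with vemurafenib, with log2 ratios of -0.55 for Gclc and -0.50 for Gclm. On day 6 the subunits differed in the size of their ratio, 0.82 for Gclm and 0.18 for Gclc on the log2 scale. The largest spread of the 10 genes over the 6 libraries was that of Gclc, whose highest value was 6.05-fold its lowest, a wider range than in 84.9% of genes.

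Txnrd1 (mm9 chr10:82296696-82360469, plus strand) encodes the cytosolic thioredoxin reductase. It had 29.3, 32.1 and 37.4 FPKM with vemurafenib on days 2, 6 and 14, against 34.4, 23.4 and 66.0 FPKM with vehicle. The vehicle library of day 14 thus stood above the other 5, and its log2 ratio to vehicle was 0.46 on day 6 and -0.82 on day 14. Srxn1, sulfiredoxin (mm9 chr2:151931252-151937112, plus strand), restores peroxiredoxins that peroxide has over-oxidized. It had 33.5, 27.0 and 18.3 FPKM with vemurafenib, against 33.9, 20.7 and 34.9 FPKM with vehicle. The arms were nearly equal on day 2 (log2 ratio -0.02), and Srxn1 had on day 14 the lowest ratio of the 10 genes, -0.93, which was above that of only 9.49% of all genes.

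Nqo1 (mm9 chr8:109912125-109927106, minus strand) encodes a quinone reductase and is the target most often used as a readout of Nrf2. It was low in this tissue, with 11.4, 4.38 and 3.35 FPKM on days 2, 6 and 14 with vemurafenib, against 8.68, 6.01 and 4.63 FPKM with vehicle. It was highest on day 2 in both arms, and its log2 ratio to vehicle was 0.39 on day 2, -0.45 on day 6 and -0.46 on day 14. On day 6 Nqo1 and Hmox1 thus lay on opposite sides of 0. G6pdx (mm9 chrX:71654822-71674533, minus strand), glucose-6-phosphate dehydrogenase, opens the pentose phosphate pathway that supplies NADPH. It has a near-identical copy, G6pd2, with which reads could be shared, so that its level is uncertain. It had 31.2, 36.8 and 59.2 FPKM with vemurafenib, against 34.3, 45.9 and 79.9 FPKM with vehicle. G6pdx was the only one of the 10 that was lower with vemurafenib on all 3 days, with log2 ratios of -0.14, -0.32 and -0.43, although those of days 2 and 6 turned to 0.05 and 0.04 when the libraries were rescaled to the same total FPKM.

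Of the regulators, Nfe2l2 (mm9 chr2:75513570-75542698, minus strand) had 36.9, 33.4 and 19.8 FPKM with vemurafenib on days 2, 6 and 14, against 36.6, 23.4 and 26.9 FPKM with vehicle. Its highest value was 1.86-fold its lowest, the narrowest range of the 10, and its log2 ratio to vehicle was 0.01, 0.51 and -0.44. Nrf2 is controlled chiefly as a protein, which these mRNA values do not measure. Keap1 (mm9 chr9:21034174-21043776, minus strand) had 41.5, 30.4 and 26.7 FPKM with vemurafenib, against 48.8, 27.3 and 20.9 FPKM with vehicle. It was the only one of the 10 that was higher with vemurafenib on day 14, with a log2 ratio of 0.35, after -0.23 on day 2 and 0.15 on day 6.

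Across the 10 genes the arms were level on day 2, most genes were higher with vemurafenib on day 6, and most were lower with vemurafenib on day 14. On day 2, 5 genes were higher and 5 lower, and none was 2-fold apart. Over all genes, 1.43% reached 2-fold in the higher direction and 3.26% in the lower one. The median log2 ratio of the 10 was -0.003, against 0 over all genes. On day 6, 8 were higher, and Nqo1 and G6pdx were lower. Only Hmox1 reached 2-fold, against 5.29% of all genes 2-fold higher and 5.03% 2-fold lower, and Hmox1 lay just short of it, at 0.997 and 0.998 on the log2 scale, with upper quartile scaling and with the median ratio of all genes set to 0. The median of the 10 was 0.29, against 0.04 over all genes, of which 54.5% were above 0. On day 14, 9 of the 10 were lower with vemurafenib and Keap1 was higher. None was 2-fold apart, where 3.64% of all genes were 2-fold higher and 7.66% 2-fold lower, and the median of the 10 was -0.52, against -0.12 over all genes, of which 57.0% were below 0.

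**Figure D2:**
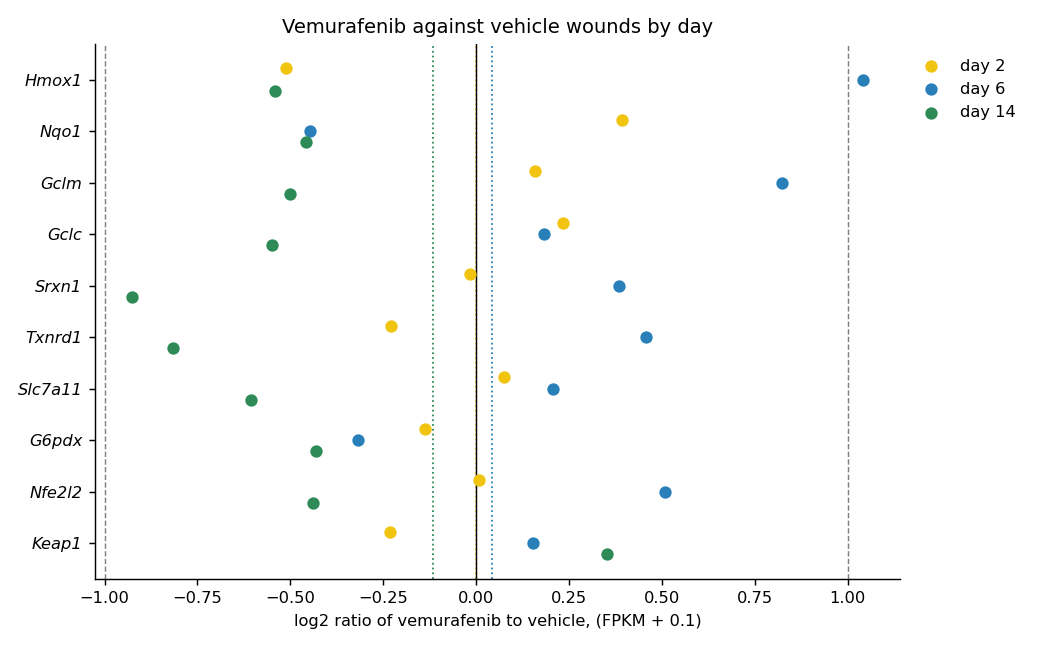
Log2 ratio of vemurafenib to vehicle (after adding 0.1 FPKM) for each of the 10 genes on days 2, 6 and 14; each mark compares 1 library with 1 library, and 0 means equal values. On day 6 only Hmox1 (1.04) lies past 2-fold, and on day 14 all genes but Keap1 lie below 0, down to -0.93 for Srxn1.

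The split of day 14, 9 lower and 1 higher, was the same under each other scaling and pseudocount tried. With a filter of a mean of at least 5 FPKM, which Slc7a11 did not pass, it was 8 lower and 1 higher. On day 6 the split of 8 higher and 2 lower became 9 and 1 with libraries rescaled to the same total FPKM, which also moved the median of all genes to 0.40 on day 6. On day 14 that rescaling moved the median of all genes to -0.25. Several marker lists were also lower with vemurafenib on day 14. All 8 measured markers of differentiated keratinocytes were lower, summing to 2381 FPKM with vemurafenib and 3795 FPKM with vehicle (median log2 ratio -0.94), as were all 10 of fibroblasts, with 2646 FPKM with vemurafenib and 4331 FPKM with vehicle (-0.59), and all 7 of the sebaceous gland (-0.87). The medians of wound-edge keratinocyte and neutrophil markers were -0.85 and -0.64, with 4 of 6 and 5 of 9 markers lower. The wound-edge sum was nevertheless higher with vemurafenib, 2898 FPKM against 1961 FPKM with vehicle. Other lists were mostly higher with vemurafenib: 8 of 8 skeletal muscle markers (1.45), 7 of 8 of endothelial cells (0.27) and 5 of 6 of adipocytes (0.46). Macrophage and basal keratinocyte markers were split, with 7 of 14 and 4 of 8 higher (0.14 and -0.03). The part of these cells in the values of the 10 genes was not tested.

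An effect of vemurafenib common to the 3 days is the only difference between arms that the design replicates, with 3 libraries per arm. It was fitted with limma to log2 FPKM, and day entered the model as a block. No member passed an adjusted p of 0.05, where 0.00747% of all genes (1 of 13392) did, and none of the 10 had an unadjusted p under 0.05, as 303 genes (2.26%) did. The fitted effects of the 10 genes lay between -0.30 for G6pdx (SE 0.22) and 0.16 for Gclm (SE 0.30) on the log2 scale, all with a Benjamini-Hochberg adjusted p of 1.0 in limma. That of Hmox1 was -0.004 (SE 0.38), in a gene whose ratio was above 0 on 1 day and below 0 on the other 2 days. This fit gives the average over days and has 2 residual degrees of freedom, and whether the effect differed between days could not be tested with 1 library in each group.

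Between days, 2 to 4 of the 10 genes were at least 2-fold apart in each comparison. These were all lower on day 6 than on day 2 in both arms. Between days 6 and 14 they were all higher on day 14 with vehicle, and in both directions with vemurafenib. Between day 2 and day 6 of the vehicle wounds, 8 of the 10 genes were lower on day 6, and the median log2 change was -0.68, against 0.0004 over all genes. Hmox1 (-1.24) and Slc7a11 (-2.32) were at least 2-fold lower, as were 11.8% of all genes, and none of the 10 was 2-fold higher, as were 9.98%. In the vemurafenib wounds 6 were lower and 4 higher on day 6 (median -0.13). Slc7a11 (-2.19) and Nqo1 (-1.36) were at least 2-fold lower, as were 6.7% of all genes, and none was 2-fold higher, as were 9.43%. Hmox1 was 0.32 higher on the log2 scale there. Cell markers also differed between these days: neutrophil markers had a median log2 change of -2.31 with vemurafenib and -3.23 with vehicle, and fibroblast markers 2.51 with vemurafenib and 1.69 with vehicle. All 9 neutrophil markers were lower on day 6 in both arms. Of these, Mmp8 and Ngp passed the filter only through day 2, with at most 0.728 and 1.31 FPKM elsewhere. Their direction was thus set by the filter. The abundant S100a8 went from 4737 to 438 FPKM with vemurafenib and from 3813 to 628 FPKM with vehicle. Macrophage markers had a median of 1.26 with vemurafenib and -0.41 with vehicle. The part of these cells in the changes between days, that of Slc7a11 included, was not tested.

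**Figure D3:**
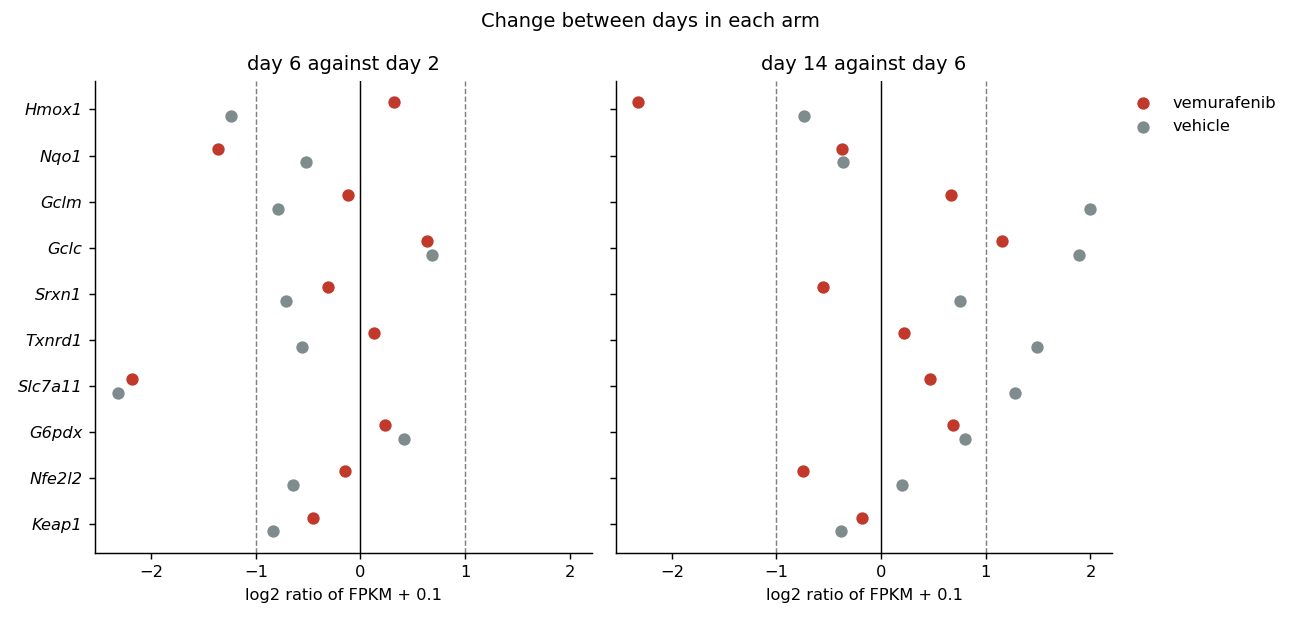
Log2 change between days within each arm, day 6 against day 2 and day 14 against day 6, for each of the 10 genes; each mark compares 1 library with 1 library. Slc7a11 lies at -2.19 with vemurafenib and -2.32 with vehicle between days 2 and 6, and Hmox1 at -2.32 with vemurafenib and -0.74 with vehicle between days 6 and 14.

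Between day 6 and day 14, Gclm, Gclc, Slc7a11, Txnrd1 and G6pdx were higher on the later day in both arms, while Hmox1, Nqo1 and Keap1 were lower. The wider lists went both ways. Of 26 other genes of glutathione synthesis and use, 12 were higher on day 14 with vemurafenib and 9 with vehicle (medians -0.05 and -0.51). With vemurafenib 5 of the 26 were at least 2-fold higher and 6 lower, and with vehicle 4 and 8. Of 14 thioredoxin and peroxiredoxin genes, 5 were higher in either arm (medians -0.06 with vemurafenib and -0.26 with vehicle). The genes named above were picked by their direction and the lists were not, so they cannot be compared directly. In the vehicle wounds 7 of the 10 were higher on day 14. Their median log2 change was 0.78, against 0.04 over all genes. Gclm (1.99), Gclc (1.89), Txnrd1 (1.49) and Slc7a11 (1.28) were at least 2-fold higher, 4 of 10 against 12.6% of all genes, and none was 2-fold lower, as were 10.1%. In the vemurafenib wounds 5 were higher and 5 lower (median 0.02). There Gclc (1.15) was the only gene at least 2-fold higher, as were 7.46% of all genes, and Hmox1 (-2.32) the only one 2-fold lower, as were 14.6%. The other genes higher on day 14 had smaller values with vemurafenib than with vehicle, a log2 change of 0.67 for Gclm, 0.22 for Txnrd1, 0.47 for Slc7a11 and 0.68 for G6pdx, the last against 0.80 with vehicle. Srxn1 and Nfe2l2 were lower on day 14 with vemurafenib (-0.56 and -0.75) and higher with vehicle (0.75 and 0.20). The 2 arms share no library in these changes, but with 1 library per group the difference between arms could not be tested. The vehicle changes and the day 14 ratios to vehicle both rest on the vehicle library of day 14, so they are not separate observations. That library had the highest value of the 6 for Gclm, Gclc, Srxn1, Txnrd1 and G6pdx. All 14 macrophage markers were lower on day 14 in both arms, with medians of -1.96 with vemurafenib and -1.02 with vehicle. They include Marco, whose fall with vemurafenib starts from the 1 library that carried it past the filter. Neutrophil markers had medians of -3.61 with vemurafenib and -1.42 with vehicle.

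Day differences common to both arms were tested in the same limma fit. Between day 2 and day 6, Slc7a11 fell by 2.25 on the log2 scale (SE 0.38, limma adjusted p = 0.0268), and it was lower on day 6 in both arms. It was the only one of the 10 to pass, where 4.75% of all genes passed. Nqo1 had -0.94 (SE 0.33) and did not pass (limma adjusted p = 0.196). The call of Slc7a11 was lost with no filter on low values (adjusted p = 0.241 in limma), with libraries rescaled to the same total (0.0697) and without day 14 (0.215), and over all alternatives its adjusted p was between 0.0194 and 0.241. Between day 6 and day 14 none of the 10 passed in limma, where 3.64% of all genes did, and 4 of the 10 had an unadjusted p under 0.05, as did 2565 genes (19.2%). These were Gclc (1.52, SE 0.31, limma adjusted p = 0.0530), Gclm (1.33, SE 0.36, adjusted p = 0.111), Hmox1 (-1.53, SE 0.46, adjusted p = 0.137) and G6pdx (0.74, SE 0.27, adjusted p = 0.205). Gclc lay at the threshold, with adjusted p-values from 0.0421 to 0.325 in limma over the alternatives. Nothing in the labels says how many animals stand behind a library, and no group had a replicate. These p-values thus rest on what was left in the 6 libraries after arm and day were fitted. That remainder includes any difference between arms that changed with the day, and it does not measure a spread between animals.

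The 10 genes did not share a single course over the 6 libraries. Gclc ran closest to G6pdx (Pearson r = 0.95 of log2 FPKM over the 6 libraries), Gclm to Txnrd1 (0.92), and Hmox1 to Nfe2l2 (0.89). Hmox1 and G6pdx (-0.87) and Gclc and Keap1 (-0.89) ran in opposite directions. These values describe 6 libraries that share the days of wound healing, so they carry no test. Of 9325 other genes whose mean reached 5 FPKM, 594 had an r of 0.9 or more with Hmox1, 118 with Nqo1 and 93 with Slc7a11. The closest to Hmox1 were Gng2 (0.997), a G protein subunit, Tmem185b (0.994), Rasa3 (0.994), a Ras GTPase-activating protein, the hyaluronan synthase Has1 (0.994) and Arhgap17 (0.993). Closest to Nqo1 were Tspan8 (0.982), asparagine synthetase Asns (0.977), the stress gene Gadd45a (0.975), Sectm1a (0.973) and the EGF receptor ligand epigen, Epgn (0.973). Closest to Slc7a11 were Chpt1 (0.992), uridine phosphorylase Upp1 (0.986), Sar1b (0.984), Myl12a (0.983) and the sulfide oxidase Sqrdl (0.977).

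Around the 10 genes, 8 lists of other pathway genes were described in the same way, with the same shares of all genes at 2-fold as above. Of 12 regulators and partners of Nrf2, 6 were higher with vemurafenib on day 2, 10 on day 6 and 4 on day 14, with medians of 0.01, 0.19 and -0.11. None was 2-fold apart on days 2 and 6, and 2 were 2-fold lower on day 14. These 2 were Cul3, the ligase scaffold that Keap1 uses (19.5 FPKM with vemurafenib and 46.6 FPKM with vehicle, log2 ratio -1.25), and Bach1, the repressor that competes for AREs (4.18 FPKM with vemurafenib and 8.57 FPKM with vehicle, -1.02). Gsk3b, a kinase that marks Nrf2 for destruction without Keap1, had a ratio of -0.88 on day 14, and the small Maf gene Mafg -0.61 on day 2.

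Of 27 genes of glutathione synthesis and use, 26 passed the filter of 1 FPKM. Of these, 12, 11 and 14 were higher with vemurafenib on days 2, 6 and 14, with medians of -0.12, -0.16 and 0.15. Only Gsta2 was 2-fold higher, on day 2 (2.30 FPKM with vemurafenib and 1.08 FPKM with vehicle, 1.02), while 2 were 2-fold lower on day 2 and 4 on day 6. Gpx3, the secreted glutathione peroxidase, had 179 FPKM with vemurafenib and 532 FPKM with vehicle on day 2 (-1.57), and Chac1, which degrades glutathione, 14.3 FPKM with vemurafenib and 36.7 FPKM with vehicle (-1.35). On day 6 the lower genes included Ggct, which splits gamma-glutamyl amino acids (55.3 FPKM with vemurafenib and 153 FPKM with vehicle, -1.47), and Mgst2, a microsomal transferase (21.6 FPKM with vemurafenib and 55.8 FPKM with vehicle, -1.37), beside Gpx2 (-1.25) and Gsta4 (-1.22), which like Gsta2 were named after their values were seen. Markers of differentiated keratinocytes were lower in the same day 6 library (median log2 ratio -1.46), and their part was not tested. Of 14 thioredoxin and peroxiredoxin genes, 8, 9 and 7 were higher, none was 2-fold apart on any day, and the medians were 0.07, 0.09 and -0.04. Sesn2, a stress-induced sestrin, had 8.10 FPKM with vemurafenib and 14.2 FPKM with vehicle on day 14 (-0.80), and Prdx5, a mitochondrial and peroxisomal peroxiredoxin, 491 FPKM with vemurafenib and 822 FPKM with vehicle on day 6 (-0.74).

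Of 7 other genes of NADPH supply, 1, 3 and 4 were higher with vemurafenib on days 2, 6 and 14, with medians of -0.12, -0.10 and 0.11. H6pd, the enzyme of the endoplasmic reticulum that resembles G6pdx, was 2-fold lower on day 2 (8.77 FPKM with vemurafenib and 19.6 FPKM with vehicle, -1.15). Pgls, the step after G6pdx, was 2-fold higher on day 14 (226 FPKM with vemurafenib and 111 FPKM with vehicle, 1.03), where G6pdx itself was lower. Malic enzyme Me1 was lower at that time, with 32.7 FPKM with vemurafenib and 62.0 FPKM with vehicle (-0.92). Of 13 quinone, aldehyde and conjugate enzymes and pumps, the list nearest to Nqo1, 10, 5 and 6 were higher, Abcc3, an export pump named after its value was seen, was just 2-fold lower on day 2, and none was 2-fold apart on the other days, with medians of 0.10, -0.12 and -0.08. Ugdh, which makes the sugar for glucuronides and hyaluronan, had 46.0 FPKM with vemurafenib and 23.4 FPKM with vehicle on day 6 (0.97).

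Most of the 12 other genes of haem and iron handling lay on the same side of 0 as Hmox1 on days 2 and 6. On day 2, 4 were higher and 8 lower with vemurafenib (median -0.25), on day 6, 10 were higher and 2 lower (median 0.40), and on day 14, 9 were higher and 3 lower (median 0.17). The ferritin light chain gene Ftl1 had 7333 FPKM with vemurafenib and 3046 FPKM with vehicle on day 6 (1.27), and 2622 FPKM with vemurafenib and 1235 FPKM with vehicle on day 14 (1.09). The heavy chain gene Fth1 had 4264 FPKM with vemurafenib and 2080 FPKM with vehicle on day 6 (1.04). Ferritin genes have many near-identical copies in the genome, so that these values are uncertain. Slc40a1, the iron exporter ferroportin, was lower on day 14, with 26.7 FPKM with vemurafenib and 78.9 FPKM with vehicle (-1.56), and the haemoglobin scavenger receptor Cd163, a macrophage gene, had -1.32 on day 2.

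Of 14 genes of oxidant production, whose products make superoxide, peroxide or nitric oxide, 10 passed the filter of 1 FPKM. Of these 10, 2, 9 and 8 were higher with vemurafenib on days 2, 6 and 14, with medians of -0.29, 1.27 and 0.44. On day 6, 7 of the 10 were at least 2-fold higher, against 5.29% of all genes, or 10.8% with libraries rescaled to the same total. Among them were subunits of the phagocyte oxidase: Cybb had 18.7 FPKM with vemurafenib and 7.38 FPKM with vehicle (1.33), Ncf1 had 38.5 FPKM with vemurafenib and 12.2 FPKM with vehicle (1.65), and Ncf4 and Cyba had log2 ratios of 1.46 and 1.28. The highest ratio was that of Nos2, the inducible nitric oxide synthase, which was named after its values were seen (11.1 FPKM with vemurafenib and 0.707 FPKM with vehicle, 3.79). The oxidase subunits are genes of macrophages and neutrophils. On that day the macrophage markers summed 3210 FPKM with vemurafenib and 1547 FPKM with vehicle, and the neutrophil markers 738 FPKM with vemurafenib and 951 FPKM with vehicle. The neutrophil sum is set mostly by S100a8 and S100a9, and 6 of 9 neutrophil markers were higher with vemurafenib, 5 of them 2-fold, with a median of 1.10. Of these 5, Mmp8, Ngp and Camp, whose ratio is the median, had at most 1.99 FPKM on that day. Csf3r and Fpr1 had 9.35 and 5.03 FPKM with vemurafenib, against 3.45 and 0.973 FPKM with vehicle. S100a8 and S100a9 were lower, with 438 and 265 FPKM with vemurafenib and 628 and 306 FPKM with vehicle. The part of macrophages and neutrophils in the oxidase values was not tested. Of the 4 genes of superoxide and peroxide removal, 1, 4 and 2 were higher, with medians of -0.13, 0.32 and 0.08, and the secreted Sod3 was 2-fold lower on day 2, with 49.7 FPKM with vemurafenib and 140 FPKM with vehicle (-1.49).

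**Figure D4:**
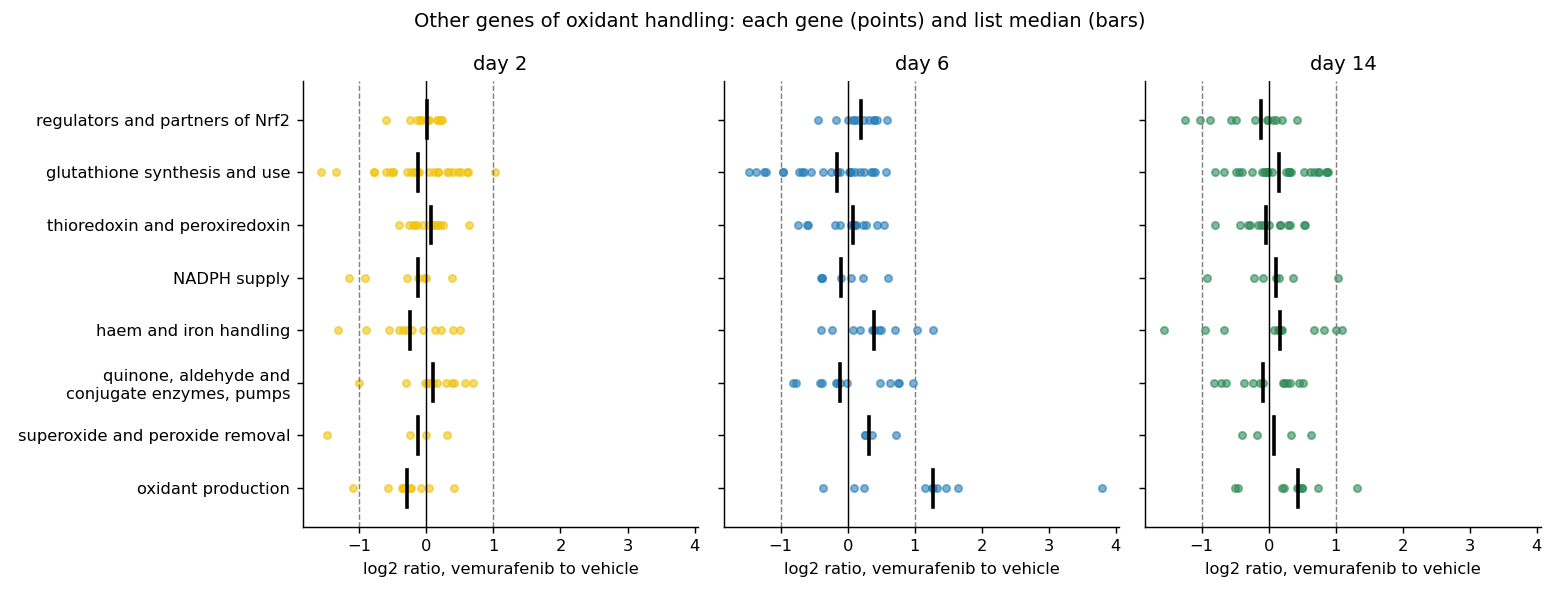
Log2 ratio of vemurafenib to vehicle on days 2, 6 and 14 for the members of the 8 pathway lists that hold none of the 10 genes; each point is 1 gene, the thick bar its list's median, and the dashed lines 2-fold. On day 6 the medians are 1.27 for oxidant production, 0.40 for haem and iron handling and -0.16 for glutathione synthesis and use, and the point at 3.79 is Nos2.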

How the data were processed

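RNA from skin around the wounds was sequenced, with 1 deposited sample per arm and day. The authors aligned reads to mm9 with TopHat and made the deposited FPKM with cuffquant (fragment bias and multi-read correction, compatible-hits normalization) and Cuffnorm. TopHat2 and Cuffdiff are also named in the submitters' processing notes, and versions are not given in the sources used here. The methods describe paired-end reads and the labels single-end reads of poly A RNA. From the 23940 genes, 27 with symbols turned into dates were left out.

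Log2 ratios were taken after adding 0.1 FPKM, which understates changes of low genes. Genes whose mean over the libraries reached 1 FPKM were kept and 2-fold differences counted. limma 3.58.1 (R 4.3.3) fitted arm and day (2 residual degrees of freedom, variance trended on the mean), p-values were adjusted by Benjamini-Hochberg over all 13392 genes (called under 0.05), and the fit was tested on simulated data. Tables were made with Python 3.11.15 and pandas 2.3.3. Named were all 10 genes, up to 4 genes per pathway list with the largest ratio between arms and a mean of at least 5 FPKM (not all are printed), and the 5 genes closest to Hmox1, Nqo1 and Slc7a11. Members and lists were chosen with earlier results of these data known. Gene positions are of mm9 (GENCODE release M1), and promoters of RefSeq. Alternatives were another pseudocount, filter, scaling, weights and variance trend, and leaving out each day.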

Additional observations from a re-analysis of the deposited data

Results flagged for a closer look

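For 4 of the 10 genes, by a rule set after the values were known, the log2 ratio of vemurafenib to vehicle lay on opposite sides of 0 on 2 of the days and differed by at least 2-fold between them. The ratio of Hmox1 was 1.55 higher on day 6 than on day 2, and its difference between day 14 and day 6 was -1.58. Between day 14 and day 6 it was -1.32 for Gclm, -1.31 for Srxn1 and -1.27 for Txnrd1. The rule was applied to the 10 genes only. How often it holds among all genes was not counted, so whether 4 of 10 is unusual is not known. Each ratio rests on 1 library per arm, so the differences between days were not tested.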

How the results depend on the processing

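Values between arms kept their direction and side of 2-fold under most alternatives (199 of 207 values), as did those between days (268 of 276). Those from limma kept their direction and call in 292 of 317. A changed filter leaves the ratio of a gene as it was. The limma effect of a gene also stays the same with a changed filter or without the variance trend, so that only its call can change. The counts between arms, between days and from limma thus hold values or directions that were the same by construction, and they overstate the stability. With libraries rescaled to the same total FPKM, 2 members were 2-fold apart between arms on day 6 and 1 on day 14, 1 between days 6 and 14 with vemurafenib, and the median on day 2 was 0.19. That median was 0.12 without the 100 most abundant genes and 0.0058 with upper quartile scaling, and 0 members were 2-fold apart on day 6 with upper quartile scaling or with the median ratio of all genes set to 0. Between days 2 and 6, 1 member was 2-fold apart in either arm with a mean of at least 5 FPKM, and 1 with vehicle without the 100 most abundant genes. Rescaling to the same total gave 312 genes 2-fold higher and 285 lower on day 2 (191 and 437 as deposited), 1451 and 378 on day 6 (708 and 674) and 354 and 1537 on day 14 (487 and 1026). Without the 100 most abundant genes the day 2 split was 262 and 324, and with the median set to 0 the day 14 split was 700 and 744. The limma vemurafenib effect was called for 0 genes with no filter, with a mean of at least 5 FPKM and without day 14, for 13 without day 2 and for 11 without day 6. For day 6 against day 2, 31 genes were called with no filter and 0 without day 14, and 0 members under these 2 alternatives, with a mean of at least 5 FPKM or after rescaling to the same total. For day 14 against day 6, 31 genes were called with no filter, 749 without the 100 most abundant genes and 820 without day 2. There 1 member, Gclc, was called without the 100 most abundant genes, with upper quartile scaling, without day 2 and with averaged columns given a weight of 2. The causes were not tested, except that fits without a day hold fewer libraries. A mean of at least 5 FPKM also leaves out Slc7a11 (mean 2.90 FPKM). Its loss from the member counts between days 2 and 6 follows from that filter. Contrasts that need a day left out could not be fitted. The arms were paired by day in limma, and no other pairing was given by the labels. Unknown depth limits what can be said of low genes such as Slc7a11.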
